A study of Mus musculus with 12 samples.

Results

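Chrysin, a flavone found in plants, was given to mouse embryonic fibroblasts, and RNA sequencing compared the treated cells with untreated ones. The chrysin group received 50 µM chrysin for 24 h, and the untreated group stood in control medium over the same time, with 4 libraries each. A further 4 libraries came from cells given apigenin at 50 µM for 24 h, a flavone with a hydroxyl group on the B ring where chrysin has none. Per the labels' protocols, the cells were used up to the fifth passage, after which they grow poorly, and the mRNA kit used keeps the strand. The sources used here give neither the mouse strain nor the number of embryos, and do not say whether each library had its own culture. The p-values therefore cover the spread between these libraries alone, and part or all of that spread may be technical. A solvent for the flavones is not named for the control medium, and an effect of a solvent cannot be told apart from that of chrysin. Of 24458 genes in the deposited table, 12198 had a mean normalized read count of at least 10 over the 12 libraries, and these are described here.

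Flavones are small phenolic compounds of plants. In cell culture they are known as inhibitors of several protein kinases, as ligands of the aryl hydrocarbon receptor and, once oxidised, as compounds that react with thiol groups and release the transcription factor NRF2 from its inhibitor KEAP1. Embryonic fibroblasts secrete collagens, proteoglycans and elastic fibre proteins, keep a contractile cytoskeleton, and express many of the ligands, receptors and transcription factors that pattern mesenchyme.

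Recovered totals were 12957321, 4298640, 5679354 and 5324271 reads in chrysin replicates 1 to 4, and 4865169 to 12871963 reads in the untreated libraries. A count of 0 allows up to 3 reads, which is 1.44 to 6.24 normalized counts over the 12 libraries and covers counting error only. Chrysin replicate 1, the deepest of its group, stood at 22.7 on the second principal component (28.7% of the variance), where its group otherwise lay between 35.9 and 46.2. On the first component (43.8% of the variance), the apigenin libraries split in pairs, at 38.7 and 42.3 for replicates 2 and 4 and at -4.78 and -7.16 for replicates 1 and 3. The fit shares its estimate of spread over all 12 libraries, so a gene that divides the apigenin libraries has a wide error in every comparison.

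The label gives fibroblasts, and all 16 markers of that cell type were measured. Vim, the intermediate filament protein of mesenchyme, had 39863, 46180, 48543 and 45616 normalized counts in chrysin libraries, against 43342, 44945, 45683 and 45474 in untreated libraries. Thy1, a surface marker of fibroblasts, had 3868, 3642, 4004 and 4098 in chrysin libraries and 3489, 3818, 3679 and 3552 in untreated libraries. The groups overlapped for both genes, and neither passed the test (adjusted p = 0.977 and adjusted p = 0.254). Over the 16 markers, however, 11 fell, 1 rose and 4 did not pass the test, with a median of -1.24, where 26.7% of all genes fell and 26.3% rose. The summed level of the 16 markers was 203842 to 258701 normalized counts in chrysin libraries and 249498 to 265124 in untreated libraries.

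In the main fit a majority of the genes measured changed with chrysin, about as many upward as downward in the deposited values. In limma's moderated test with Benjamini-Hochberg adjustment over the 12198 genes, 3208 genes (26.3%) rose and 3251 (26.7%) fell at an adjusted p under 0.05, 53.0% in all. A change of at least 1 on the log2 scale was reached by 948 of the rises (7.77% of genes) and 1370 of the falls (11.2% of genes). In 6270 genes (51.4%) all 4 chrysin values lay outside the range of the 4 untreated values. Whether a majority changed depended on the fit. At an adjusted p under 0.01, 2474 genes rose and 2357 fell, and without untreated replicate 3, 2916 rose and 2849 fell. In neither case was this a majority of the 12198 genes, while with array weights 3645 rose and 3774 fell. The median log2 fold change over all genes was -0.03 in the main fit. That median, and with it the balance of rises and falls, depends on how the libraries are scaled. By limma-voom, which scales by the total reads of a library, 2698 genes rose and 3521 fell, with a median of -0.09. The shares of the main fit are the background for every count below. In bulk samples, fewer cells of a type and less RNA per cell cannot be told apart.

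**Figure D1:**
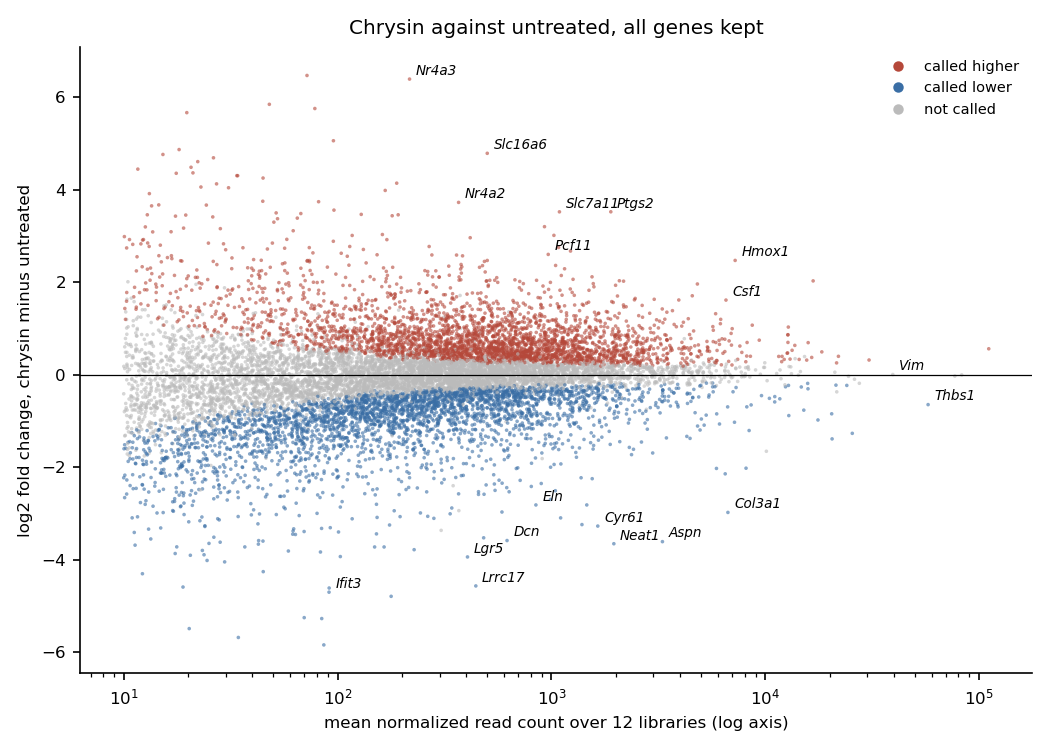
The log2 fold change of chrysin against untreated (vertical axis) is plotted against the mean normalized read count over 12 libraries (horizontal log axis) for 12198 genes, with called rises in red, called falls in blue and the rest in grey. Rises and falls were found over the whole range of levels, for example Nr4a3 at 6.39 and Lrrc17 at -4.57.

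The largest rise among genes at or above the median level was that of Slc16a6, a monocarboxylate transporter of the plasma membrane. It had 623, 712, 919 and 609 normalized counts in chrysin libraries, against 29.1, 29.3, 19.8 and 21.6 in untreated libraries. Every chrysin library lay far above every untreated one, a 27.6-fold rise (log2 4.79 ± 0.54, adjusted p = 3.38e-05). The largest fall at these levels was that of Lrrc17, a secreted leucine-rich repeat protein. It had 48.6, 79.1, 35.3 and 41.9 counts in chrysin libraries and 1456, 1132, 1133 and 1052 in untreated libraries, and was 23.8-fold lower (log2 -4.57 ± 0.57, adjusted p = 6.31e-05). Lgr5, the R-spondin receptor that marks stem cells of the gut, had 62.2, 74.9, 62.9 and 83.7 counts in chrysin libraries and 1439, 1037, 970 and 1002 in untreated libraries, and was 15.4-fold lower. The chrysin and untreated libraries were well apart for all 3 genes. The largest rises not described further below were those of Fam110c (2.77 ± 0.72, not called by limma-voom), Vps37b (2.36 ± 0.36), the cyclic GMP kinase Prkg2 (2.32 ± 0.16) and the arrestin-like Arrdc3 (2.29 ± 0.13). The falls were those of Gas2 (-3.53 ± 0.35), Kctd12 (-2.59 ± 0.33), Sertad4 (-2.59 ± 0.52), the pentraxin Ptx3 (-2.58 ± 0.70) and Nrep (-2.54 ± 0.48).

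**Figure D2:**
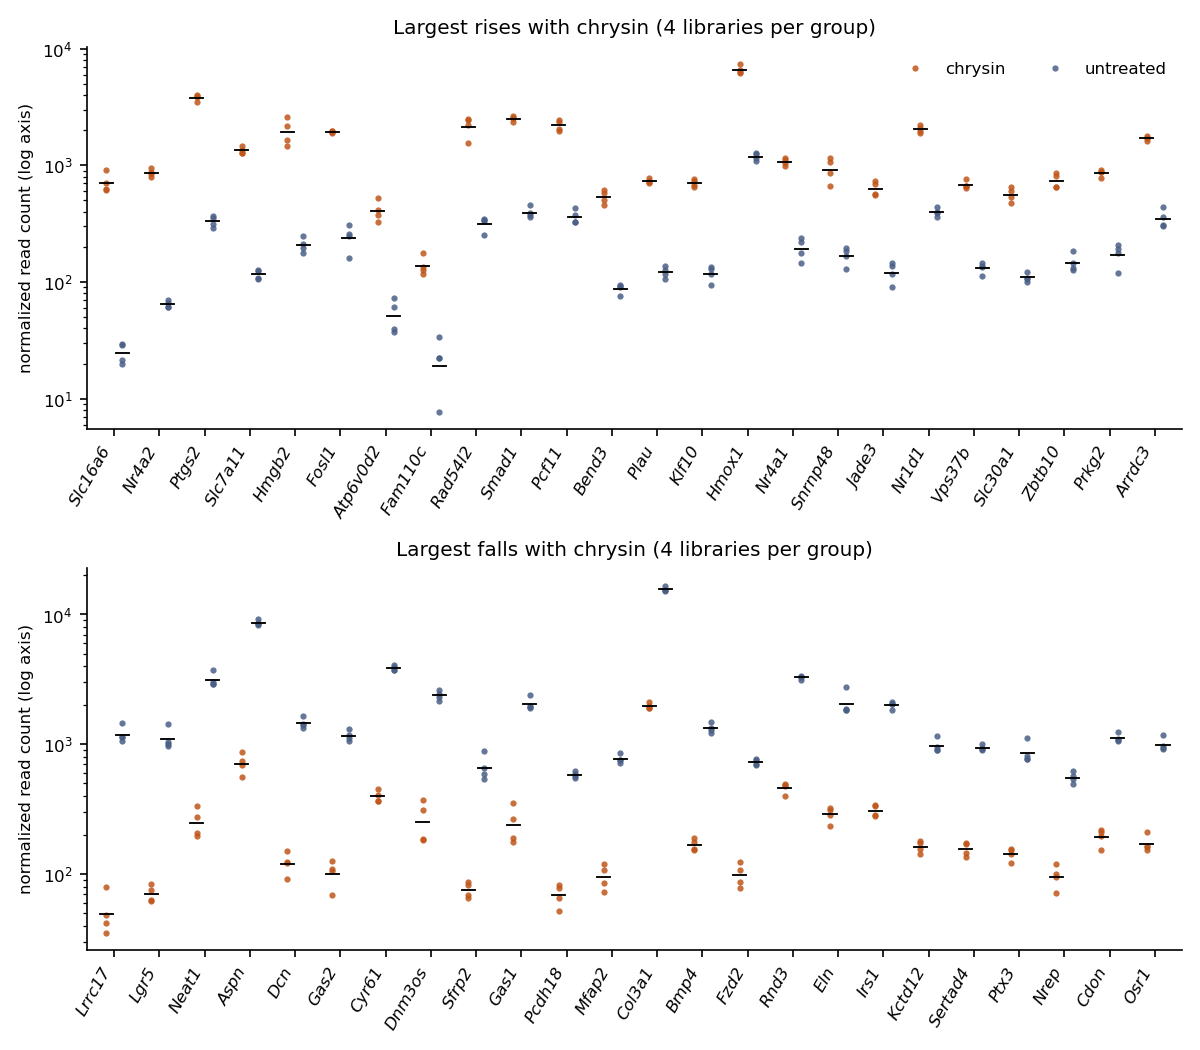
Normalized read counts (vertical log axis) of the 24 largest rises and the 24 largest falls are shown with chrysin libraries in orange on the left and untreated libraries in blue on the right of each gene, 4 points per group, and black bars for the means on the log2 scale. No group overlapped its counterpart, which the choice of these genes required.

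Genes that respond within minutes to growth factors and cyclic AMP were followed first. Such genes encode short-lived factors that pass a signal on. All 3 members of the NR4A family of orphan nuclear receptors rose. Nr4a3 had 603, 574, 432 and 611 normalized counts in chrysin libraries, against 3.42, 4.31, 5.65 and 10.8 in untreated libraries. All chrysin libraries were far above the untreated ones, and untreated replicate 1 was under the limit that 3 reads set (log2 6.39 ± 0.44, adjusted p = 2.89e-08). Nr4a2 had 798, 837, 874 and 949 counts in chrysin libraries and 70.1, 61.2, 60.7 and 65.6 in untreated libraries (3.73 ± 0.13, adjusted p = 1.86e-12). Nr4a1 had 1118, 1159, 991 and 1046 in chrysin libraries and 147, 240, 179 and 222 in untreated libraries (2.47 ± 0.17, adjusted p = 6.51e-09). No library of either group crossed into the other for any of the 3. Each also differed between chrysin and apigenin, by 2.90 ± 0.44, 2.30 ± 0.13 and 2.27 ± 0.17 on the log2 scale for Nr4a3, Nr4a2 and Nr4a1, with chrysin higher.

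Of 27 immediate early transcription factors, 13 rose and 6 fell. The rises included Klf10, a zinc finger repressor induced by growth factors (2.57 ± 0.15), the stress factor Atf3 (2.25 ± 0.37), Csrnp1 (2.24 ± 0.37), and Egr1 (1.42 ± 0.30). Among AP-1 subunits the changes were uneven. Fosl1, which encodes FRA1, had 1877, 1967, 1968 and 1915 counts in chrysin libraries and 162, 259, 306 and 250 in untreated libraries (3.01 ± 0.21, adjusted p = 7.56e-08). Fos itself had 115, 129, 110 and 142 in chrysin libraries and 99.1, 134, 120 and 134 in untreated libraries, and did not pass the test (0.03 ± 0.33, adjusted p = 0.943). Jun rose slightly (0.41 ± 0.11) and Jund fell (-1.14 ± 0.12). The pluripotency and growth factors Myc, Klf4 and Klf2 fell (-1.37 ± 0.14, -1.28 ± 0.10 and -3.46 ± 0.36). Myc had 185, 131, 169 and 182 counts in chrysin libraries and 398, 402, 485 and 440 in untreated libraries, a separation with no overlap.

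Nr4a1 and Nr4a2 are also targets of CREB, the factor that cyclic AMP activates. The kinase Sik1, which CREB induces and which holds CREB's coactivators in the cytoplasm, had 670, 531, 670 and 663 counts in chrysin libraries, against 104, 152, 136 and 141 in untreated libraries (2.25 ± 0.17, adjusted p = 2.03e-08). The coactivators Crtc2 (1.00 ± 0.10) and Crtc3 (0.72 ± 0.12) and the phosphodiesterase Pde4b (1.35 ± 0.17) rose. Of 23 genes of that list, 9 rose, 2 fell and 12 did not pass the test, Creb1 among them (-0.08 ± 0.14, adjusted p = 0.668). The count of falls was 5 with array weights, 6 by limma-voom and 4 in the fit of the 8 chrysin and untreated libraries alone.

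The circadian clock is a feedback loop in which CLOCK and BMAL1 drive the Per, Cry and Nr1d genes, whose products repress it. Of 20 clock genes, 12 rose and 3 fell, with a median of 0.85. The repressor Nr1d1, or REV-ERB alpha, had 1890, 1981, 2204 and 2101 normalized counts in chrysin libraries and 361, 397, 436 and 394 in untreated libraries (2.36 ± 0.13, adjusted p = 6.73e-10). Per1 had 1116, 999, 1155 and 1194 in chrysin libraries and 258, 273, 234 and 274 in untreated libraries (2.10 ± 0.13, adjusted p = 4.01e-09). Chrysin libraries were several times above untreated ones for both. Ciart, a repressor of the clock (2.42 ± 0.26), Clock (1.78 ± 0.17), Rora (1.56 ± 0.15) and Cry1 (1.47 ± 0.21) also rose, and the output factor Dbp (-1.22 ± 0.21) and Per3 (-1.27 ± 0.22) fell. Arntl, which encodes BMAL1, and Per2 did not pass the test (adjusted p = 0.0973 and adjusted p = 0.28), though Arntl did with the 8 libraries alone (adjusted p = 0.045). All libraries were taken at 1 time of treatment, so a phase cannot be read.

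Inhibitors that close the MAP kinase loop rose in 9 of 17 genes and fell in 3, and without untreated replicate 1 the rises were 5, as they were 4 by limma-voom. The phosphatase Dusp2 had 42.1, 18.7, 23 and 38.5 counts in chrysin libraries and 1.71, 0.862, 0.706 and 2.55 in untreated libraries, where replicates 1 to 3 were under the limit that 3 reads set. It passed the test (adjusted p = 2.00e-04), and no fold is given against levels so low. Errfi1, an inhibitor of the EGF receptor, rose (1.20 ± 0.15). Spry1, another inhibitor of receptor kinase signalling, had 159, 142, 215 and 194 in chrysin libraries and 400, 444, 417 and 361 in untreated libraries and fell (-1.20 ± 0.19).

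Prostaglandin and cytokine genes were divided between rises and falls, at shares near those of all genes. Ptgs2, the inducible cyclooxygenase that makes the prostaglandin precursor, had 3476, 3985, 3831 and 3962 normalized counts in chrysin libraries, against 292, 315, 352 and 369 in untreated libraries (3.52 ± 0.16, adjusted p = 2.91e-10). The prostaglandin transporters Abcc4 and Slco2a1 rose (1.07 ± 0.14 and 1.32 ± 0.13), while the receptors Ptgfr and Ptgir and the prostacyclin synthase Ptgis fell (-2.63 ± 0.65, -1.71 ± 0.54 and -1.37 ± 0.25). After quantile normalization Ptgir lost its call. Ptgs1, the constitutive cyclooxygenase, did not pass the test (-0.25 ± 0.14). In all, 5 of 16 genes rose and 5 fell, and the falls were 3 without chrysin replicate 1.

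Of 30 secreted cytokines and growth factors, 9 rose and 9 fell. Csf1, the macrophage colony-stimulating factor, had 10565, 10982, 9532 and 12087 counts in chrysin libraries and 3250, 3635, 3661 and 3524 in untreated libraries (1.61 ± 0.13, adjusted p = 5.76e-08). Lif, a cytokine of the interleukin 6 family, had 307, 273, 227 and 216 in chrysin libraries and 41, 20.7, 41 and 24.8 in untreated libraries (3.01 ± 0.29). Il11, of the same family (2.56 ± 0.65), and Ereg, a ligand of the EGF receptor (2.22 ± 0.21), rose as well, each with every chrysin library above every untreated one. The chemokines Cxcl5 and Ccl2 fell (-3.73 ± 0.78 and -1.55 ± 0.24), as did the growth factors Igf1 (-1.22 ± 0.28) and Hgf (-0.96 ± 0.24). Il6 had 1 to 6 reads in chrysin libraries and 0 to 3 in untreated libraries and could not be compared at this depth. The falls numbered 14 with array weights and 15 with the 8 libraries alone.

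NF-kB is held in the cytoplasm by inhibitors that it induces itself. Of 19 subunits and inhibitors, 10 rose and 2 fell. The inhibitor Nfkbia had 411, 429, 442 and 452 counts in chrysin libraries and 156, 117, 113 and 122 in untreated libraries (1.77 ± 0.14, adjusted p = 4.29e-08). Tnfaip3, which encodes the inhibitor A20, had 203, 206, 124 and 201 in chrysin libraries and 17.1, 25, 36.7 and 28.6 in untreated libraries (2.75 ± 0.32, adjusted p = 2.84e-06). Among the subunits, Rel (1.26 ± 0.28), Relb (0.97 ± 0.25), Nfkb1 (0.89 ± 0.11) and Nfkb2 (0.83 ± 0.16) rose, and Rela did not pass the test (0.10 ± 0.08, adjusted p = 0.309).

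Promoter windows of RefSeq on GRCm38.p6, from 250 bases before to 50 after the start of a gene, were searched on both strands for the elements of these and later groups, and 9751 of the 12198 genes had a window. Each sequence shown here and below was picked, by small p, from called members of its list whose window holds the element. A match was thus required for a window to be shown. Capitals mark the match. The first is the clock element, an E-box (CACGTG), 11.9% of genes, in the window of Per1 at chr11:69098699-69098998 on the plus strand. The second holds the NF-kB element (GGNNTTTCC), 7.04% of genes, in the window of Nfkbia at chr12:55492598-55492897 on the minus strand.
Per1: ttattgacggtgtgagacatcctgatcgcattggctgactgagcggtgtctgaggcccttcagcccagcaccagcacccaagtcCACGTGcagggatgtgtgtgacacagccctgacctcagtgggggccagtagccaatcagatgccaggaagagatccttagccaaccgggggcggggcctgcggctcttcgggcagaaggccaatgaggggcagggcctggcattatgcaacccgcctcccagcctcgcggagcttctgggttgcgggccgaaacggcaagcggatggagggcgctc
Nfkbia: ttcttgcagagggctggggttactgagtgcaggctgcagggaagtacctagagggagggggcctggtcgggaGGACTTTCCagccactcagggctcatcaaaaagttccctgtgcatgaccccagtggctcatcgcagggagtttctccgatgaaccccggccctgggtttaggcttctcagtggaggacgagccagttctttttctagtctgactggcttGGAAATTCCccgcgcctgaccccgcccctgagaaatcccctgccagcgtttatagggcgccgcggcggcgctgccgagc
Among genes of the clock list 5 of 17 with a window held the E-box, 4 of them among its 10 called rises with a window, and in the NF-kB list 7 of 14 held its element, 6 of them among its 8 called rises with a window. A cyclic AMP element (TGACGTCA), found in 3.67% of genes, was in 0 of 16 genes of the cyclic AMP list with a window. A gene counts once, here and below, if any of its windows holds a match. These are matches of letters in a short window and no more.

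Most genes for cleavage and polyadenylation rose, as did most for transcription elongation in the main fit, a few of them by large steps. Cleavage and polyadenylation factors cut the nascent transcript at its end and release RNA polymerase II. Of 24 genes, 14 rose and 3 fell, with a median of 0.40. Pcf11, which couples cleavage to termination, had 2051, 2441, 1983 and 2355 normalized counts in chrysin libraries, against 328, 373, 428 and 326 in untreated libraries (2.60 ± 0.12, adjusted p = 9.94e-11). Scaf4, an anti-terminator that prevents early polyadenylation, had 2199, 2250, 2250 and 2449 in chrysin libraries and 689, 707, 645 and 623 in untreated libraries (1.78 ± 0.09, adjusted p = 1.94e-10). Chrysin levels were 6.07-fold higher for Pcf11 and 3.43-fold higher for Scaf4, with no overlap. Rbbp6, a scaffold of the cleavage complex (1.65 ± 0.09), and the zinc finger subunit Cpsf4 (2.10 ± 0.18) rose too. The falls were those of Cstf2t, an intronless gene for a cleavage stimulation factor (-1.28 ± 0.17), Scaf8 (-0.50 ± 0.13) and Cpsf1 (-0.32 ± 0.12), the last of which lost its call on leaving out any of untreated replicates 1, 3 and 4 or chrysin replicates 2 and 3.

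P-TEFb, made of CDK9 and a T-type cyclin, frees paused polymerase, and HEXIM1 inhibits it. Of 33 elongation and termination genes, 18 rose and 5 fell, with a median of 0.31. Ccnt1, the cyclin of P-TEFb, had 931, 997, 899 and 1078 counts in chrysin libraries and 239, 239, 259 and 209 in untreated libraries (2.04 ± 0.12, adjusted p = 1.42e-09). Hexim1 had 113, 79.1, 136 and 134 in chrysin libraries and 335, 318, 323 and 334 in untreated libraries (-1.53 ± 0.17, adjusted p = 1.29e-06). The inhibitor and the cyclin thus stood on opposite sides of their untreated levels. Ccnk, the cyclin of CDK12 (1.58 ± 0.10), Cdk12 (0.88 ± 0.13) and Ell2 (1.16 ± 0.14) rose, and Polr2a, the largest subunit of RNA polymerase II, fell (-0.60 ± 0.12). The rises numbered 15 after quantile normalization, 16 by limma-voom or without untreated replicate 1, and 19 with the 8 chrysin and untreated libraries alone. The falls numbered 3 without untreated replicate 1, 2 or 4 and 2 without chrysin replicate 4.

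Of 47 enzymes that modify DNA and histones, 21 rose and 10 fell. Setd2, which trimethylates histone H3 behind elongating polymerase, had 3635, 3966, 3201 and 4267 counts in chrysin libraries and 1357, 1386, 1378 and 1291 in untreated libraries (1.47 ± 0.10). The acetyltransferases Ep300 and Crebbp (1.27 ± 0.10 and 1.04 ± 0.11) and the Polycomb subunits Ezh2, Suz12 and Eed (1.20 ± 0.13, 1.10 ± 0.12 and 1.00 ± 0.12) rose, while the class II deacetylases Hdac5 and Hdac7 fell (-0.82 ± 0.13 and -0.90 ± 0.17). The class I deacetylases Hdac1 and Hdac2 did not pass the test (adjusted p = 0.237 and adjusted p = 0.0969), though Hdac2 did with the 8 libraries alone (adjusted p = 0.0148). Further large rises among nuclear proteins were those of Hmgb2, a chromatin protein with close copies in the genome whose counting is uncertain (3.20 ± 0.36), the helicase Rad54l2 (2.75 ± 0.19), the repressors Bend3 (2.59 ± 0.42) and Zbtb10 (2.33 ± 0.26), the acetyltransferase scaffold Jade3 (2.38 ± 0.20) and Snrnp48, of the minor spliceosome (2.45 ± 0.28). Of 37 splicing regulators, 8 rose and 10 fell, shares close to or below the background, and the rises numbered 5 without untreated replicate 2, 3 or 4 or without chrysin replicate 3 or 4. Ptbp2, the neural form of the polypyrimidine tract protein, was the largest rise (1.88 ± 0.14).

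Growth genes divided by the step they serve. Ribosomes are assembled in the nucleolus from RNA made by RNA polymerases I and III and from ribosomal proteins. Of 43 assembly factors, 29 rose and 0 fell, or 1 without chrysin replicate 1, with a median of 0.70. The nucleolar GTPase Gnl3 had 1148, 1344, 1443 and 1257 normalized counts in chrysin libraries, against 446, 427, 465 and 430 in untreated libraries (1.55 ± 0.10, adjusted p = 2.96e-09). Noc3l (1.43 ± 0.12), Mybbp1a (1.17 ± 0.08), Utp14a (1.05 ± 0.10) and nucleolin, Ncl (0.86 ± 0.10), also rose. Of 27 subunits and factors of polymerases I and III, 12 rose and 3 fell, with Taf1d (1.83 ± 0.16), Bdp1 (1.33 ± 0.11) and Ubtf (0.93 ± 0.08) among the rises. The falls were 1 without untreated replicate 3 or 4 and 1 with limma without trend and robust estimation.

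The ribosomal proteins did not follow. Of 75 measured genes for cytosolic ribosomal proteins, 3 rose and 4 fell, with a median of 0.05. These counts were unstable. Without chrysin replicate 1, 15 rose, without untreated replicate 1, 6 rose and 1 fell, and without untreated replicate 2, 3 or 4 or chrysin replicate 2 or 3, 1 rose. The falls were 2 without untreated replicate 4 or chrysin replicate 4, and 1 without chrysin replicate 2. Array weights gave 17 rises, and after quantile normalization 1 rose, 10 fell and the median was -0.08. Many of these genes have near-identical pseudogenes, and how the authors' counting treated shared reads is not stated. Of 74 mitochondrial ribosomal proteins 6 rose and 12 fell, and of 74 nuclear subunits of the respiratory chain and ATP synthase 1 rose and 18 fell. The falls of the respiratory chain included Ndufb11 (-0.72 ± 0.15), Ndufa9 (-0.59 ± 0.14) and Sdhb (-0.50 ± 0.10). Without chrysin replicate 1 the rises numbered 11 mitochondrial ribosomal proteins and 4 respiratory chain subunits, and with array weights 13 and 4. The 1 respiratory chain rise was lost without untreated replicate 3 or 4 or chrysin replicate 3 or 4, and 2 rose without untreated replicate 1.

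Of 38 proteasome subunits, 16 rose and 2 fell, with Psmd14 the largest rise that passed the test (0.53 ± 0.12), and 10 rose after quantile normalization. The falls were the immunoproteasome subunit Psmb10 (-1.25 ± 0.32) and Psmb4 (-0.29 ± 0.12), and the call of Psmb4 was lost on leaving out untreated replicate 1, 3 or 4, apigenin replicate 4 or any chrysin library. Aminoacyl-tRNA synthetases rose in 4 of 20 genes, a share below the background, and in 9 with array weights, while 0 fell, or 1 without untreated replicate 3 or apigenin replicate 1 or 2.

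DNA replication begins with licensing of origins by ORC, CDT1 and the MCM helicase. Of 42 replication genes, 18 rose and 0 fell. Orc1, the subunit of the origin recognition complex that cycles with the cell, had 171, 127, 127 and 194 counts in chrysin libraries, against 5.13, 13.8, 17.7 and 19.7 in untreated libraries (3.48 ± 0.34, adjusted p = 4.29e-07). The licensing factors Cdt1 (2.17 ± 0.22) and Mcm10 (2.72 ± 0.46) and the helicase subunits Mcm2 (1.78 ± 0.19) and Mcm3 (1.38 ± 0.26) rose, as did the G1 cyclin Ccne1 (1.67 ± 0.25). Pcna, the sliding clamp, did not pass the test (0.23 ± 0.13, adjusted p = 0.146). Of 40 mitotic genes 10 rose and 0 fell. That count depended on the libraries in the fit, the apigenin ones included. It was 26 in the fit of the 8 chrysin and untreated libraries alone and 16 without apigenin replicate 4. With array weights it was 22, after quantile normalization 19 and by limma-voom 9. It was 7 without untreated replicate 3 or chrysin replicate 3, and 8 without untreated replicate 1 or 4 or chrysin replicate 1. Cyclin B1, Ccnb1, had 123, 123, 167 and 112 counts in chrysin libraries and 90.6, 64.6, 67.1 and 82.1 in untreated libraries (0.78 ± 0.38, adjusted p = 0.0966), and passed the test in the fit of those 8 libraries (adjusted p = 0.00166).

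The inhibitor Cdkn1c, or p57, had 113, 175, 221 and 161 counts in chrysin libraries and 796, 796, 768 and 705 in untreated libraries (-2.23 ± 0.17, adjusted p = 2.27e-08). Ccnd1, the cyclin of G1, had 9285, 9912, 8472 and 9946 in chrysin libraries and 4394, 4988, 4969 and 4968 in untreated libraries (0.96 ± 0.12). Its kinase Cdk4 fell (-0.78 ± 0.14), and so did Cdkn2b (-0.94 ± 0.15) and Cdkn1a, or p21 (-0.44 ± 0.07). Of 29 p53 targets, 12 rose and 7 fell. Mdm2, the ligase of p53 (1.20 ± 0.12), Gadd45a (1.44 ± 0.23) and Pmaip1, a promoter of cell death also known as NOXA (1.34 ± 0.40), rose, and Ddb2 (-1.26 ± 0.38) and Phlda3 (-0.67 ± 0.13) fell. Trp53 itself had 1648, 1808, 1942 and 1558 in chrysin libraries and 1487, 1425, 1345 and 1334 in untreated libraries (0.31 ± 0.08, adjusted p = 0.00526), and lost its call after quantile normalization. Of 15 members of the BCL2 family, 3 rose and 0 fell.

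**Figure D3:**
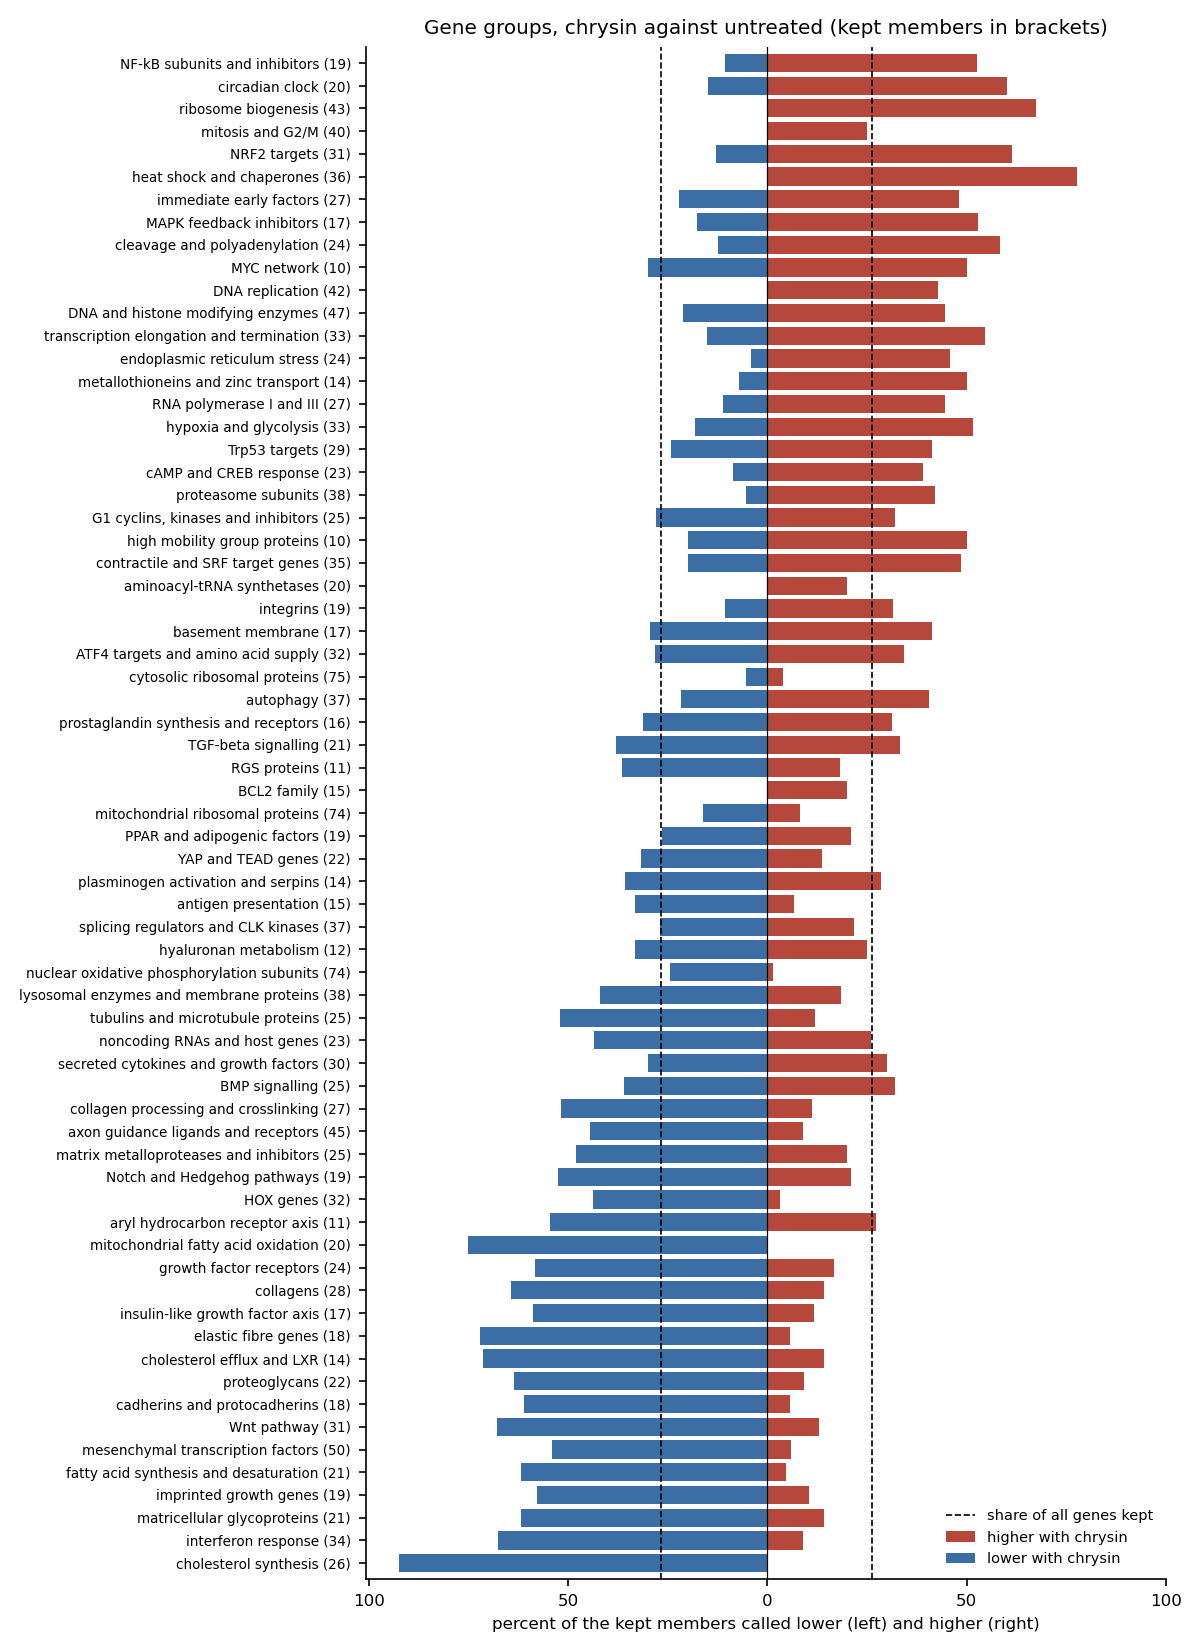
Bars give the percent of measured members called higher (right, red) and lower (left, blue) with chrysin for each gene group, ordered by median log2 fold change, and dashed lines give the shares over all 12198 genes. NF-kB, clock and ribosome biogenesis genes stood at the top and cholesterol synthesis, interferon response and matricellular genes at the bottom.

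Stress responses were present in several forms. NRF2 drives genes of glutathione, thioredoxin and heme metabolism through antioxidant elements. Of 31 targets, 19 rose and 4 fell, and the falls were 2 without untreated replicate 1 or chrysin replicate 4. The cystine transporter Slc7a11 had 1457, 1286, 1278 and 1353 normalized counts in chrysin libraries, against 108, 127, 106 and 125 in untreated libraries (3.52 ± 0.11, adjusted p = 7.20e-13). Heme oxygenase, Hmox1, had 7333, 6562, 6368 and 6199 in chrysin libraries and 1090, 1152, 1242 and 1284 in untreated libraries (2.47 ± 0.08, adjusted p = 8.00e-13). Chrysin libraries lay several times above untreated ones for both. The glutathione synthesis subunits Gclc (1.97 ± 0.09) and Gclm (2.15 ± 0.12), the sulfiredoxin Srxn1 (2.02 ± 0.09) and Osgin1 (2.88 ± 0.32) rose. Nqo1, a quinone reductase often used as a marker of NRF2, had 422, 318, 345 and 388 in chrysin libraries and 275, 284, 273 and 258 in untreated libraries and did not pass the test (0.43 ± 0.34, adjusted p = 0.315), though it did with the 8 chrysin and untreated libraries alone (adjusted p = 0.00366). The glutathione transferase Gstm1 fell (-1.04 ± 0.29). Against apigenin, 19 of the 31 genes were lower with chrysin, among them Hmox1 (-1.07 ± 0.08), Srxn1 (-1.32 ± 0.09) and Gstm1 (-2.09 ± 0.29).

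Of 14 metallothionein and zinc transport genes, 7 rose and 1 fell, or 2 without apigenin replicate 1. MTF1 senses zinc and induces metallothioneins and the zinc exporter ZNT1. The exporter gene Slc30a1 had 474, 535, 598 and 658 counts in chrysin libraries and 109, 123, 106 and 101 in untreated libraries (2.35 ± 0.22, adjusted p = 3.68e-07). Mt2 had 1262, 1059, 1597 and 1061 in chrysin libraries and 511, 437, 436 and 401 in untreated libraries (1.46 ± 0.12, adjusted p = 6.40e-08). Mt1 (0.72 ± 0.09) and Mtf1 (1.68 ± 0.12) rose as well, and both metallothioneins were lower with chrysin than with apigenin, by -2.04 ± 0.09 for Mt1 and -1.98 ± 0.12 for Mt2 on the log2 scale, while Slc30a1 and Mtf1 were higher (0.91 ± 0.22 and 0.87 ± 0.12).

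Chaperones had the largest share of rises of the groups of at least 10 members. Of 36 heat shock and chaperone genes, 28 rose and 0 fell, with a median of 0.56. The mitochondrial chaperonin Hspd1 had 4730, 5606, 5589 and 5166 counts in chrysin libraries and 2606, 2475, 2453 and 2379 in untreated libraries (1.09 ± 0.08, adjusted p = 1.55e-08). Subunits of the cytosolic chaperonin, such as Cct8 (0.56 ± 0.09) and Cct2 (0.46 ± 0.09), changed by less. Hspa1a, the inducible HSP70, had 66.1, 47.9, 90.5 and 53.6 in chrysin libraries and 10.2, 19, 16.9 and 28 in untreated libraries (1.78 ± 0.35). Its neighbour Hspa1b, a near-identical copy, rose too (1.06 ± 0.20), and counts of this pair are uncertain. Hspb1, a small heat shock protein, did not pass the test (adjusted p = 0.893).

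In the endoplasmic reticulum 11 of 24 stress genes rose and 1 fell, or 3 with the 8 libraries alone, and 2 without untreated replicate 2, chrysin replicate 3 or any apigenin library. Dnajb9 (1.70 ± 0.21), the phosphatase subunit Ppp1r15a (1.68 ± 0.26) and BiP, Hspa5 (0.62 ± 0.19), rose, Xbp1 fell (-0.69 ± 0.11), and Ddit3, the cell death factor CHOP, did not pass the test (-0.46 ± 0.20, adjusted p = 0.058, or adjusted p = 0.00431 with the 8 libraries alone). ATF4 targets were mixed, with 11 of 32 higher and 9 lower. Amino acid transporters Slc3a2, Slc7a1 and Slc1a4 rose (1.50 ± 0.10, 1.11 ± 0.27 and 1.01 ± 0.12), while the proline synthesis gene Pycr1 fell (-1.10 ± 0.19).

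Glycolytic and hypoxia genes rose in 17 of 33 and fell in 6, with 10 rises after quantile normalization. Hexokinase 2, Hk2, had 351, 304, 270 and 328 counts in chrysin libraries and 87.2, 95.7, 76.3 and 110 in untreated libraries (1.76 ± 0.16, adjusted p = 1.59e-07). Lactate dehydrogenase Ldha rose (0.73 ± 0.08), as did the glucose transporter Slc2a1 (0.81 ± 0.25) except by limma-voom. Aldoc, a brain form of aldolase, had 24, 8.32, 30.7 and 20.1 in chrysin libraries and 183, 192, 185 and 227 in untreated libraries (-3.31 ± 0.34), and Ndrg1, a gene known for its induction in hypoxia, had 297, 223, 258 and 300 in chrysin libraries and 1030, 1118, 1138 and 1098 in untreated libraries (-2.03 ± 0.11). All chrysin libraries were below all untreated ones for both. Hif1a did not pass the test (-0.06 ± 0.12, adjusted p = 0.717).

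The aryl hydrocarbon receptor binds flavones and drives Cyp1 genes. The receptor gene Ahr had 89.4, 39.5, 78.2 and 55.2 normalized counts in chrysin libraries, against 400, 340, 388 and 409 in untreated libraries (-2.60 ± 0.23, adjusted p = 1.15e-07). Its target Cyp1b1 had 1040, 1041, 1032 and 996 in chrysin libraries and 3580, 3501, 3293 and 3286 in untreated libraries (-1.73 ± 0.34, adjusted p = 0.00152). Both were lower in every chrysin library. The repressor Ahrr fell (-1.74 ± 0.44) and Tiparp, a target that limits the receptor, rose (0.86 ± 0.12). Cyp1a1, the classical target, had 0 or 1 reads in each chrysin library and 0 in each untreated library and could not be compared at this depth. Esr1, an oestrogen receptor gene, had 7.78, 12.5, 15.3 and 10 in chrysin libraries and 8.54, 19.8, 23.3 and 17.8 in untreated libraries, and did not pass the test (-0.52 ± 0.46, adjusted p = 0.354).

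Nearly all genes of cholesterol synthesis fell. Its genes are driven by SREBP2 when sterols are short. Of 26 genes, 0 rose and 24 fell, with a median of -1.55. The mean log2 level of the list was 8.15, 8.14, 8.22 and 8.15 in chrysin replicates 1 to 4, against 9.94, 9.55, 9.54 and 9.55 in untreated replicates 1 to 4. Untreated replicate 1 was the highest, and no library of 1 group reached the other. Dhcr7, of the last step of the pathway, had 132, 156, 166 and 172 counts in chrysin libraries and 882, 676, 641 and 659 in untreated libraries (-2.18 ± 0.13, adjusted p = 1.34e-09). The early enzymes Hmgcs1 (-1.60 ± 0.28) and Mvk (-2.13 ± 0.21) fell, and Scap, which escorts SREBP2 out of the endoplasmic reticulum, did not pass the test (0.01 ± 0.12).

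Fatty acid synthesis genes, driven by SREBP1, fell in 13 of 21 genes and rose in 1. Acss2, which makes acetyl-CoA, had 57, 25, 93.5 and 48.5 counts in chrysin libraries and 388, 364, 395 and 441 in untreated libraries (-2.94 ± 0.30, adjusted p = 1.21e-06). The elongase Elovl6 (-2.17 ± 0.23), the desaturases Scd1 (-1.38 ± 0.23) and Scd2 (-2.02 ± 0.38) and the synthase Fasn (-1.26 ± 0.15) fell, as did Srebf1 (-1.10 ± 0.24). The 1 rise was that of Lpin1 (1.06 ± 0.11), a phosphatidate phosphatase, and 2 rose without chrysin replicate 1. Genes of cholesterol efflux fell in 10 of 14. Apoe had 318, 181, 199 and 243 in chrysin libraries and 1155, 1018, 1174 and 1150 in untreated libraries (-2.28 ± 0.20), and the transporter Abca1 fell (-0.88 ± 0.18), while Abcg1 had 163, 93.7, 107 and 126 in chrysin libraries and 41, 48.3, 38.8 and 33.1 in untreated libraries and rose (1.56 ± 0.27). Mitochondrial fatty acid oxidation fell in 15 of 20 genes and rose in 0, with a median of -0.49. Acads (-1.06 ± 0.17), Acaa2 (-0.83 ± 0.13), Ech1 (-0.79 ± 0.14) and Acadm (-0.76 ± 0.11), enzymes of the oxidation cycle, were among the falls.

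Lysosomal genes fell in 16 of 38 and rose in 7, with hydrolases such as Gaa (-0.82 ± 0.11) and Ctsa (-0.61 ± 0.08) lower and the proton pump subunit Atp6v1b2 (0.80 ± 0.09) higher. The pump subunit Atp6v0d2, best known in osteoclasts, rose more (2.96 ± 0.57), though not by limma-voom. Of 37 autophagy genes, 15 rose and 8 fell. Atg14 (1.45 ± 0.15), Ulk1 (1.20 ± 0.15) and Atg12 (1.20 ± 0.13) were higher. Pink1, a kinase that marks damaged mitochondria, had 360, 343, 397 and 330 counts in chrysin libraries and 624, 836, 773 and 842 in untreated libraries and fell (-1.09 ± 0.11), as did Map1lc3b, which encodes LC3 (-0.57 ± 0.08).

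Windows for 3 further elements are given below, again with matches in capitals. The sterol element (TCACNCCAC), found in 1.39% of genes, was in 1 of 18 cholesterol genes with a window. That gene was Hmgcs1, with its window at chr13:119690101-119690400 on the plus strand. The heat shock element (GAANNTTC), found in 6.75% of genes, was in 13 of 29 chaperone genes with a window. Of these, 8 were among the 24 called rises with a window. Hspd1, at chr1:55087883-55088182 on the minus strand, holds 1. The interferon element (GAAANNGAA), found in 8.18% of genes, was in 19 of 28 interferon genes with a window. Of these, 13 were among the 20 called falls with a window. Irgm1, at chr11:48871371-48871670 on the minus strand, holds 2 that overlap.
Hmgcs1: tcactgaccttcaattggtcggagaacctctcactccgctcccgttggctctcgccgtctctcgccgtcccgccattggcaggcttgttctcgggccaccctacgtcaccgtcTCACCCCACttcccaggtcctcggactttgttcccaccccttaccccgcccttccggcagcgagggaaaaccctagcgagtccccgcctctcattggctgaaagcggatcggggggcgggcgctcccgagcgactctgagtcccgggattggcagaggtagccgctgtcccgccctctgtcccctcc
Hspd1: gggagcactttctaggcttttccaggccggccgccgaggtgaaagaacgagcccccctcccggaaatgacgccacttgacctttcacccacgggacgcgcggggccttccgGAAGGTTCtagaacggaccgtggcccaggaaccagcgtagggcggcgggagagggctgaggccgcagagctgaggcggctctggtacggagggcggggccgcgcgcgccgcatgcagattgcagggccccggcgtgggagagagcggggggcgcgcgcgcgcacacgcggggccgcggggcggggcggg
Irgm1: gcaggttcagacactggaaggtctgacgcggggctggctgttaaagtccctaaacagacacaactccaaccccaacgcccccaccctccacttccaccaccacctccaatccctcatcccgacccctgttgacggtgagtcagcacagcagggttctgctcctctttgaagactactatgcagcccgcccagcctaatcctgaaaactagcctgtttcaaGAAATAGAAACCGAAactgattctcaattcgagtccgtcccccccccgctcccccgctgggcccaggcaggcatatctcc
The antioxidant element (TGACNNNGC), found in 16.8% of genes, was in 9 of 25 NRF2 targets with a window. Of these, 7 were among the 14 called rises with a window. An AP-1 element (TGANTCA), found in 6.00% of genes, was in 1 of 21 immediate early factors with a window.

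Of 34 genes induced by interferon, 3 rose and 23 fell, with a median of -1.02. Untreated embryonic fibroblasts often keep a low tonic interferon signal before any infection. Ifit3, which binds viral RNA complexes, had 25.9, 4.16, 12.3 and 3.35 normalized counts in chrysin libraries, against 222, 260, 252 and 251 in untreated libraries (-4.71 ± 0.58, adjusted p = 8.65e-06). Chrysin replicates 2 and 4 were under the limit that 3 reads set, so this fold is imprecise. The GTPase Irgm1 had 97.8, 108, 101 and 142 in chrysin libraries and 395, 443, 507 and 509 in untreated libraries (-2.04 ± 0.14, adjusted p = 1.04e-08). Chrysin libraries stood below all untreated ones for both, and Ifit1 (-4.62 ± 0.77), Isg15 (-2.32 ± 0.42) and the signalling genes Stat2 (-1.61 ± 0.15) and Irf9 (-0.99 ± 0.14) fell with them. Irf1 had 494, 422, 370 and 492 in chrysin libraries and 138, 151, 152 and 179 in untreated libraries and rose (1.51 ± 0.14, adjusted p = 1.81e-07), as did Irf2 (1.05 ± 0.14) and Isg20 (1.77 ± 0.25). In antigen presentation, Tap1, the peptide transporter, rose (1.50 ± 0.25), and H2-T23 and Tapbp fell (-2.38 ± 0.50 and -0.84 ± 0.09), while B2m did not pass the test (adjusted p = 0.499).

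The extracellular matrix fell in most of its classes. Of 28 measured collagen genes, 4 rose and 18 fell, with a median of -0.52. Col3a1, a fibrillar collagen of soft tissue, had 1982, 2121, 1914 and 1900 normalized counts in chrysin libraries, against 16704, 15376, 15056 and 15368 in untreated libraries (-2.98 ± 0.32, adjusted p = 2.07e-05). Col11a1, a fibrillar collagen that seeds thin fibrils, had 781, 716, 722 and 758 in chrysin libraries and 3560, 3653, 3445 and 3528 in untreated libraries (-2.25 ± 0.08, adjusted p = 2.67e-12). The untreated libraries were several times higher for each. Col1a1 (-1.27 ± 0.10) and Col1a2 (-1.39 ± 0.09), the chains of type I collagen, fell less. The basement membrane chain Col4a1 did not pass the test (0.06 ± 0.08), and Col20a1 (3.74 ± 0.29), Col11a2 (3.37 ± 0.38), Col15a1 (1.65 ± 0.39) and Col6a3 (0.51 ± 0.08) rose. Of 27 processing and crosslinking genes 14 fell, among them lysyl oxidase, Lox (-0.85 ± 0.08), and the procollagen protease Bmp1 (-0.76 ± 0.10), and 3 rose, among them the lysyl oxidase family members Loxl3 (1.29 ± 0.12) and Loxl4 (1.17 ± 0.09). The rises numbered 5 without chrysin replicate 1 and with array weights.

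Elastic fibres are made of elastin laid on fibrillin microfibrils. Of 18 genes, 1 rose and 13 fell. Elastin, Eln, had 236, 325, 314 and 286 counts in chrysin libraries and 2739, 1841, 1871 and 1831 in untreated libraries (-2.82 ± 0.14, adjusted p = 1.23e-10). Untreated replicate 1 stood above the other untreated libraries, and all chrysin libraries stood far below them. The microfibril proteins Mfap4 (-3.79 ± 0.37) and Mfap2 (-3.01 ± 0.31), fibrillin 2, Fbn2 (-2.39 ± 0.41), and Emilin1 (-2.29 ± 0.20) fell, and Mfap5 did not pass the test (0.00 ± 0.21, adjusted p = 0.999). Small leucine-rich proteoglycans, which space collagen fibrils, gave some of the largest falls. Aspn had 557, 868, 742 and 691 in chrysin libraries and 8498, 9252, 8553 and 8310 in untreated libraries (-3.61 ± 0.26, adjusted p = 6.06e-07). Dcn had 124, 150, 92 and 121 in chrysin libraries and 1663, 1404, 1431 and 1338 in untreated libraries (-3.59 ± 0.46, adjusted p = 7.66e-05). Both, and Lum (-3.09 ± 0.28), were many times lower in all chrysin libraries, whereas Bgn (-0.03 ± 0.10) and the large proteoglycan Vcan (0.03 ± 0.21) did not pass the test. In all, 14 of 22 proteoglycans fell and 2 rose, or 1 without untreated replicate 2 or chrysin replicate 1 or 4.

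Matricellular proteins, which signal from the matrix, fell in 13 of 21 genes and rose in 3. The CCN proteins Cyr61 and Ctgf parted ways. Cyr61 had 367, 410, 454 and 367 counts in chrysin libraries, against 3737, 3916, 4071 and 3732 in untreated libraries (-3.28 ± 0.14, adjusted p = 5.77e-11). Ctgf had 6752, 8780, 7544 and 7891 in chrysin libraries and 5687, 7034, 6604 and 6648 in untreated libraries, ranges that overlapped (0.25 ± 0.18, adjusted p = 0.247, or adjusted p = 0.0158 with the 8 libraries alone). Fibronectin, Fn1 (0.56 ± 0.16), tenascin C, Tnc (0.66 ± 0.12), and osteopontin, Spp1 (2.03 ± 0.48), rose, and periostin, Postn (-1.37 ± 0.09), fell.

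Proteases and their regulators changed in opposite directions within single systems. Plau, the urokinase activator of plasminogen, had 783, 699, 722 and 732 counts in chrysin libraries and 118, 107, 126 and 136 in untreated libraries (2.59 ± 0.45, adjusted p = 5.86e-04). Its receptor gene Plaur had 679, 716, 581 and 633 in chrysin libraries and 150, 140, 163 and 172 in untreated libraries (2.05 ± 0.21, adjusted p = 9.58e-07). Both rose, and the tissue activator Plat had 222, 189, 213 and 174 in chrysin libraries and 607, 552, 559 and 573 in untreated libraries and fell (-1.52 ± 0.11, adjusted p = 1.14e-08). Of 25 metalloproteases and inhibitors, 5 rose, with Mmp13 (2.25 ± 0.35) and Timp1 (1.00 ± 0.11), and 12 fell, with Mmp2 (-1.53 ± 0.11), Mmp14 (-0.66 ± 0.11), Adamts1 (-1.57 ± 0.09) and Adamts5 (-1.70 ± 0.17). Hyaluronan's receptor Cd44 rose (1.61 ± 0.15) and its synthase Has2 fell (-1.52 ± 0.24). Integrins rose in 6 of 19 genes and fell in 2, with the fibronectin receptor subunits Itga5 (0.85 ± 0.13) and Itgb1 (0.49 ± 0.08) higher and the collagen receptor subunit Itga11 lower (-1.04 ± 0.16).

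Contractile genes, many under SRF and its actin-regulated cofactors, rose in 17 of 35 and fell in 7. Smooth muscle actin, Acta2, had 23389, 23775, 23940 and 24776 normalized counts in chrysin libraries and 16887, 13930, 14079 and 14617 in untreated libraries (0.69 ± 0.07, adjusted p = 7.29e-07). Beta actin, Actb, had 12506, 13238, 14950 and 12846 in chrysin libraries and 23702, 22349, 22261 and 22688 in untreated libraries (-0.77 ± 0.11, adjusted p = 3.91e-05). The actins therefore moved in opposite directions, each without overlap. Calponin, Cnn1 (1.13 ± 0.14), Srf (0.87 ± 0.10), Myl9 (0.82 ± 0.13) and Tpm2 (0.73 ± 0.09) rose, and Fhl2 (-1.19 ± 0.17), Zyx (-0.66 ± 0.09) and the SRF cofactor Mkl1 (-1.05 ± 0.14) fell. CArG boxes, the sites of SRF, were found in 1.56% of genes and in 9 of 31 genes of this list with a window. The window of Srf itself, at chr17:46556113-46556412 on the minus strand, holds 2, shown in capitals.
Srf: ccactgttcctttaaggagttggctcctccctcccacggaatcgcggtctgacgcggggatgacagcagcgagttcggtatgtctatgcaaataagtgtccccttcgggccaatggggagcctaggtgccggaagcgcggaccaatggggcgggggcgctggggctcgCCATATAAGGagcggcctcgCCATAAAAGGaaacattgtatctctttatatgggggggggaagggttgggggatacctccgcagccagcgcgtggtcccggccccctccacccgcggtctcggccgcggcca
Markers of muscle and pericytes overlap this list (Acta2, Myh11, Cnn1 and Lmod1 are in both). Of 8 measured markers 4 rose and 0 fell, though Lmod1 fell in the fit of the 8 chrysin and untreated libraries alone. The markers summed to 27001 to 28387 normalized counts in chrysin libraries and 16442 to 19339 in untreated libraries, and Acta2 alone made up most of these sums. Muscle factors not kept by the filter had at most 17 reads over the 12 libraries, Myod1, Myog and Myf5 among them. Tubulins and microtubule proteins fell in 13 of 25 genes, Tubb3 (-2.30 ± 0.33) and Tuba1a (-2.15 ± 0.32) among them, and rose in 3, which was 1 without chrysin replicate 3 and 6 with array weights. Tubulins have near-identical copies, and their counts are uncertain. Rnd3, an atypical small GTPase that opposes contraction, had 397, 487, 497 and 475 in chrysin libraries and 3293, 3329, 3323 and 3137 in untreated libraries and fell (-2.82 ± 0.36).

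Of the signals that pattern mesenchyme, Wnt, Notch and Hedgehog genes fell more often than they rose, and TGF-beta genes were divided about evenly. BMP genes were divided about evenly in the main fit, though not in every fit. In the Wnt pathway 21 of 31 genes fell and 4 rose, with a median of -0.82. Sfrp2, a secreted inhibitor of Wnt, had 82.3, 87.4, 69 and 65.3 normalized counts in chrysin libraries and 895, 592, 656 and 541 in untreated libraries (-3.11 ± 0.28, adjusted p = 3.81e-07). The receptor Fzd2 had 124, 87.4, 78.2 and 107 in chrysin libraries and 755, 702, 687 and 768 in untreated libraries (-2.88 ± 0.21, adjusted p = 1.68e-08). Both were several times lower with chrysin. The ligand Wnt5a (-1.34 ± 0.10), the receptors Ror1 (-2.90 ± 0.51) and Fzd1 (-1.93 ± 0.17), the target Axin2 (-2.11 ± 0.39) and beta-catenin, Ctnnb1 (-0.82 ± 0.11), also fell, and the nuclear factor Lef1 rose (2.14 ± 0.35).

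The BMP pathway showed opposite changes in a ligand and its transducer. The ligand Bmp4 had 189, 177, 153 and 156 counts in chrysin libraries and 1476, 1285, 1345 and 1213 in untreated libraries (-2.97 ± 0.27, adjusted p = 1.31e-06). The transducer Smad1 had 2337, 2551, 2550 and 2636 in chrysin libraries and 390, 372, 456 and 362 in untreated libraries (2.67 ± 0.33, adjusted p = 4.91e-05). The inhibitory SMAD gene Smad7 rose (1.91 ± 0.27), while the direct targets Id3 (-1.91 ± 0.21) and Id4 (-1.41 ± 0.27) fell. The antagonist Chrdl1 fell too (adjusted p = 5.67e-06), with no fold given, as chrysin replicates 2 to 4 were at or under the limit of 3 reads. Over the list 8 of 25 genes rose and 9 fell. The falls numbered 13 with the 8 chrysin and untreated libraries alone and 12 with array weights, beside 8 rises in each. They numbered 6 without untreated replicate 3 or 4 or chrysin replicate 2. In TGF-beta signalling 7 of 21 rose, with the repressor Skil (1.37 ± 0.20) and Tgif1 (1.47 ± 0.25), and 8 fell, with the ligands Tgfb2 (-0.90 ± 0.11) and Tgfb3 (-0.69 ± 0.09).

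Of 19 Notch and Hedgehog genes 4 rose and 10 fell. The Hedgehog coreceptor Gas1 had 264, 177, 353 and 191 counts in chrysin libraries and 2379, 1977, 1941 and 1890 in untreated libraries (-3.10 ± 0.28, adjusted p = 2.51e-06). The coreceptors Cdon (-2.53 ± 0.14) and Boc (-1.07 ± 0.17) and the effector Gli3 (-1.30 ± 0.21) fell as well. The Notch ligand Jag2 had 39.5, 12.5, 36.8 and 26.8 in chrysin libraries and 1.71, 0, 0 and 1.27 in untreated libraries, where all 4 were under the limit that 3 reads set, and rose (adjusted p = 3.11e-04, with no fold given), while Jag1 fell (-1.19 ± 0.28).

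Receptors for growth factors fell in 14 of 24 genes, the platelet-derived growth factor receptors Pdgfra (-0.82 ± 0.10) and Pdgfrb (-1.45 ± 0.27) among them, and rose in 4. In the insulin-like growth factor axis 10 of 17 fell. The adaptor Irs1 had 341, 285, 334 and 278 counts in chrysin libraries and 1839, 2122, 2044 and 2035 in untreated libraries (-2.70 ± 0.19, adjusted p = 2.99e-08), the binding proteins Igfbp5 (-2.44 ± 0.31) and Igfbp2 (-2.23 ± 0.25) fell, and Irs2 (1.06 ± 0.26) and Igfbp3 (1.71 ± 0.28) rose. Igf2 stood at -1.66 ± 0.67 and did not pass the test (adjusted p = 0.0628), but with the 8 chrysin and untreated libraries alone it fell (adjusted p = 6.61e-09).

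Transcription factors of mesenchyme fell in 27 of 50 genes and rose in 3, with a median of -0.83. The odd-skipped factor Osr1 had 152, 164, 212 and 161 counts in chrysin libraries and 1172, 970, 915 and 935 in untreated libraries (-2.53 ± 0.38, adjusted p = 1.64e-04). Osr2 (-2.36 ± 0.26), Msx1 (-2.01 ± 0.21), Sox4 (-1.50 ± 0.16), Sox9 (-1.26 ± 0.20) and Prrx1 (-1.03 ± 0.27) fell. Tbx2 had 228, 223, 175 and 239 in chrysin libraries and 23.9, 20.7, 14.8 and 15.9 in untreated libraries and rose (3.47 ± 0.70, adjusted p = 0.00148). HOX genes, which give position along the body, fell in 14 of 32, Hoxc6 (-1.57 ± 0.23) and Hoxa13 (-1.45 ± 0.19) among them, and in 9 after quantile normalization. Imprinted growth genes fell in 11 of 19, with Peg3 (-1.30 ± 0.20) and H19 (-1.21 ± 0.32). Guidance molecules and their receptors fell in 20 of 45, with Plxnc1 (-3.03 ± 0.40) and Sema6a (-1.83 ± 0.21), and cadherins and protocadherins in 11 of 18, with Pcdh18 (-3.06 ± 0.27) and Cdh11 (-1.09 ± 0.30), the cadherin of mesenchyme.

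Lists of markers of other cell types were at low levels. Macrophage and leukocyte markers summed to 939 to 1083 normalized counts in chrysin libraries and 1085 to 1277 in untreated libraries, 9 of 15 were kept, 0 rose and 2 fell (1 without untreated replicate 1 or chrysin replicate 2 or 4), and Cd3e had 0 reads in all 12 libraries. Endothelial markers summed to 189 to 248 counts with chrysin and 190 to 224 in untreated libraries, with Tie1 and Cldn5 at 0 reads. Epithelial markers summed to 55 to 67 counts with chrysin and 39 to 73 in untreated libraries, with Krt14 and Esrp1 at 0 reads. Neural markers summed to 2374 to 2772 with chrysin and 3568 to 4105 in untreated libraries, with 4 of 7 lower, Tubb3 and Map2 (-1.09 ± 0.32) among them, and Olig2 at 0 reads. Adipocyte and chondrocyte markers summed to 629 to 750 with chrysin and 689 to 845 in untreated libraries. The part of other cells in the results was not tested.

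Structure of the genes went with the direction of change. Exon blocks, lengths and transcript GC content came from the GENCODE vM1 annotation of mm9, the build of the files, for 92.5% (lengths) and 90.9% (GC content) of the genes measured. Of 230 genes with a single exon block, 16 rose and 130 fell (6.96% and 56.5%), and their median log2 change was -0.87. Of 11049 genes with more blocks, 27.1% rose and 26.0% fell. The median of the single-exon genes against the mean of the untreated group was -0.79, -0.91, -0.67 and -0.93 in chrysin replicates 1 to 4, and 0.06, -0.03, 0.00 and -0.03 in untreated replicates 1 to 4. All chrysin libraries were low and all untreated ones near 0. The share that fell was 66.7% of 51 such genes at or above the median level and 53.6% of 179 below it, against 22.8% and 29.4% of other genes at these levels. Over the alternative fits, 119 to 145 of the 230 fell, apart from the stricter level filter, which kept 134 and gave 89, and at an adjusted p under 0.01 106 of the 230 fell. Against apigenin, 100 of the 230 were lower with chrysin and 21 higher, with a median difference of -0.52, where 24.7% and 26.1% of all genes were lower and higher.

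Single-exon genes with large falls were the nuclear noncoding RNA Neat1, the scaffold of paraspeckles, and Dnm3os, the host transcript of a microRNA cluster. Neat1 had 332, 208, 273 and 198 normalized counts in chrysin libraries, against 3755, 2997, 2904 and 2939 in untreated libraries (-3.66 ± 0.38, adjusted p = 1.65e-05). Dnm3os had 311, 185, 373 and 182 in chrysin libraries and 2632, 2456, 2305 and 2148 in untreated libraries (-3.24 ± 0.39, adjusted p = 5.20e-05). Malat1, the neighbour of Neat1 on its chromosome and also nuclear, had 3686, 2591, 1782 and 2272 in chrysin libraries and 2732, 2500, 2469 and 2518 in untreated libraries and did not pass the test (-0.03 ± 0.22, adjusted p = 0.908). Gas1, Fzd2, Fzd1, Hexim1, Cstf2t, Sox4 and Jund, described above, are single-exon genes too, as is Rhob, a small GTPase of endosomes (-2.35 ± 0.11). The 16 that rose included Hspa1a, Hspa1b and Foxq1 (1.84 ± 0.45). The median over 229 long noncoding RNAs was -0.46, with 27 (11.8%) higher and 68 (29.7%) lower. Of all genes 26.3% were higher and 26.7% lower, so the share of falls was near that of all genes.

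Calls also varied with gene length, GC content and level. When genes were split by length into 5 classes of equal number, 14.8% rose and 35.7% fell in the shortest class, up to 8296 bp. In the fourth class, 33573 to 72421 bp, 35.5% rose and 20.0% fell. The longest class, from 72478 bp, did not continue this, as 28.6% rose and 26.7% fell, close to the shares of all genes. In the class with the lowest transcript GC content 35.4% rose and 17.8% fell, and in that with the highest 16.8% rose and 36.2% fell. This grading by GC was weak in chrysin replicate 1, where the lowest and highest classes had medians of 0.02 and -0.06 against the untreated mean, and stronger in chrysin replicates 2 to 4, at 0.16 to 0.26 and at -0.28 to -0.23. Depth moved with it, at 12957321 reads in replicate 1 and 4298640 to 5679354 in the others, and its part was not tested. By level, 11.4% rose and 26.8% fell in the lowest class, and 42.2% rose and 20.1% fell in the highest. This grading too was weakest in chrysin replicate 1, with medians of -0.20 and 0.09 in the lowest and highest classes. Replicates 2 to 4 had -0.39 to -0.24 and 0.15 to 0.20. Of the shortest genes, 39.1% fell among those lower in level and 31.7% among those higher in level. Length, GC content and level were not tested apart.

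**Figure D4:**
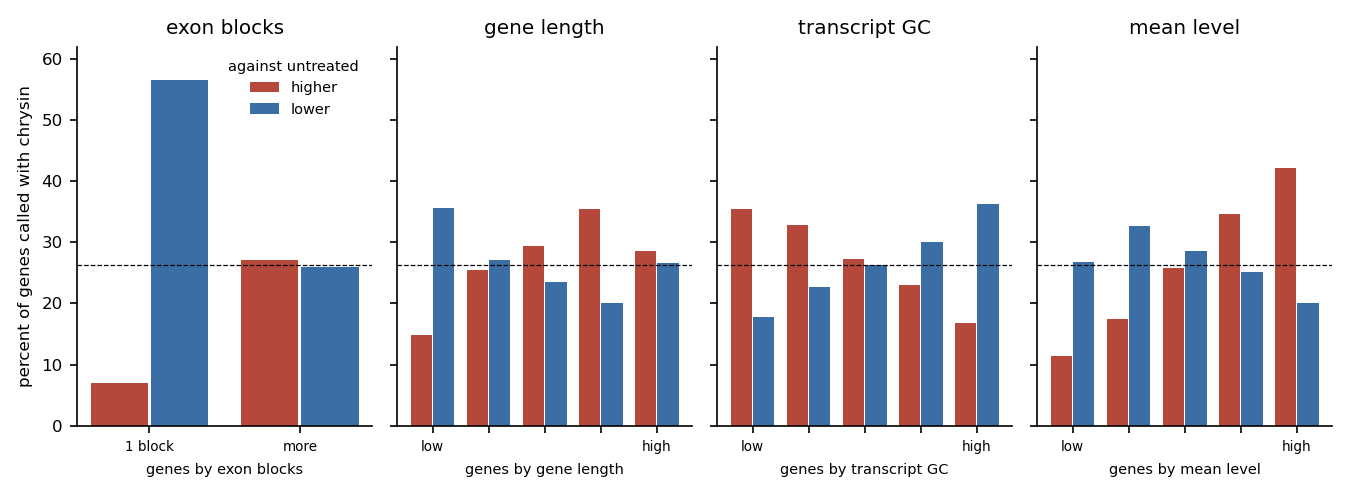
Bars give the percent of genes called higher (red) and lower (blue) with chrysin by number of exon blocks and by 5 classes of equal number, low to high, of gene length, transcript GC content and mean level, with a dashed line at 26.3%. Single-exon genes had 56.5% called lower, the highest share of any class shown.

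Chrysin and apigenin differ by the hydroxyl group on the B ring and were given at the same dose and time. In the same fit 6190 genes (50.7%) differed between the flavones, 3179 (26.1%) higher with chrysin and 3011 (24.7%) lower. By limma-voom, which scales by the total reads of a library, 2130 were higher and 4210 lower, and that scaling put the median difference of all genes at -0.21, against -0.01 in the deposited values. With apigenin replicates 1 and 3 alone 6232 genes differed, and with replicates 2 and 4 alone 6366, a choice made after the division of the apigenin libraries was seen. Both flavones share the untreated libraries, so values for each are given side by side. Thbs1, the matrix glycoprotein thrombospondin, had 62565, 67490, 53534 and 72304 normalized counts with chrysin, against 10614, 8394, 9738 and 8359 with apigenin, and 89053, 101224, 103911 and 105391 in untreated libraries. Chrysin stood 2.78 ± 0.10 above apigenin on the log2 scale (adjusted p = 5.24e-12) and below untreated (-0.65 ± 0.10). Ctgf had 816, 1474, 888 and 1491 with apigenin, and chrysin was higher by 2.78 ± 0.18 (adjusted p = 4.43e-08). Pcf11 had 301, 378, 277 and 351 with apigenin, near its untreated level, and chrysin was higher by 2.76 ± 0.12 (adjusted p = 8.58e-11). Sik1 had 79.6, 116, 80.8 and 116 with apigenin, and chrysin was higher by 2.70 ± 0.17 (adjusted p = 3.69e-09).

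The other largest differences with chrysin above apigenin were of varied kinds. The cytoskeletal adaptor Sorbs2 (2.98 ± 0.17) and the interleukin 1 antagonist Il1rn (2.71 ± 0.19) stood near their untreated levels with chrysin (-0.38 ± 0.17 and 0.04 ± 0.19 against untreated, both not passing the test). With the 8 chrysin and untreated libraries alone, Sorbs2 fell (adjusted p = 0.00898). The choline transporter Slc5a7 (2.90 ± 0.79) and the aldehyde dehydrogenase Aldh1a7 (2.65 ± 0.40) had larger errors, and the 4 apigenin libraries of each fell into pairs. The difference in Slc5a7 lost its call with apigenin replicates 2 and 4 alone. Below apigenin, Neat1 (-3.11 ± 0.38) and Dnm3os (-2.41 ± 0.39) differed most with the matrix protease Mmp11 (-2.57 ± 0.13). Neat1 had 3701, 1284, 3697 and 1207 counts with apigenin replicates 1 to 4, again in pairs, and all 4 were above every chrysin library. Itgb3, an integrin subunit, had 319, 227, 322 and 198 with chrysin, against 808, 2042, 781 and 1985 with apigenin, and differed by -2.27 ± 0.31. Against untreated it did not pass the test (0.50 ± 0.31, adjusted p = 0.199, or adjusted p = 0.0115 with the 8 libraries alone). Sox4 (-2.18 ± 0.16), Tmem140 (-2.14 ± 0.25), Gstm1 and the mitochondrial carrier Slc25a23 (-2.06 ± 0.17) made up the rest.

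By group, contractile genes were higher with chrysin than with apigenin in 32 of 35 members and lower in 1, where 26.1% and 24.7% of all genes were. By limma-voom 26 contractile genes were higher and 2 lower, and after quantile normalization 24 were higher and 1 lower. Of the 31 NRF2 targets 3 were higher and 19 lower with chrysin. Cleavage and polyadenylation factors were higher in 12 of 24 and lower in 4, clock genes higher in 10 of 20 and lower in 1, and lysosomal genes higher in 4 of 38 and lower in 23. Collagens were higher with chrysin in 12 of 28 and lower in 5. By limma-voom collagens divided evenly, at 9 and 9, no lysosomal gene was higher and 27 were lower, and 6 cleavage genes were lower, and after quantile normalization 10 collagens were lower and 2 lysosomal genes higher. Some of the largest changes against untreated were not shown to differ between the flavones. Col3a1 differed by -0.14 ± 0.32 (95% interval -0.84 to 0.56) and Slc16a6 by 0.33 ± 0.54 (95% interval -0.87 to 1.53), neither past the test (adjusted p = 0.731 and adjusted p = 0.641).

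**Figure D5:**
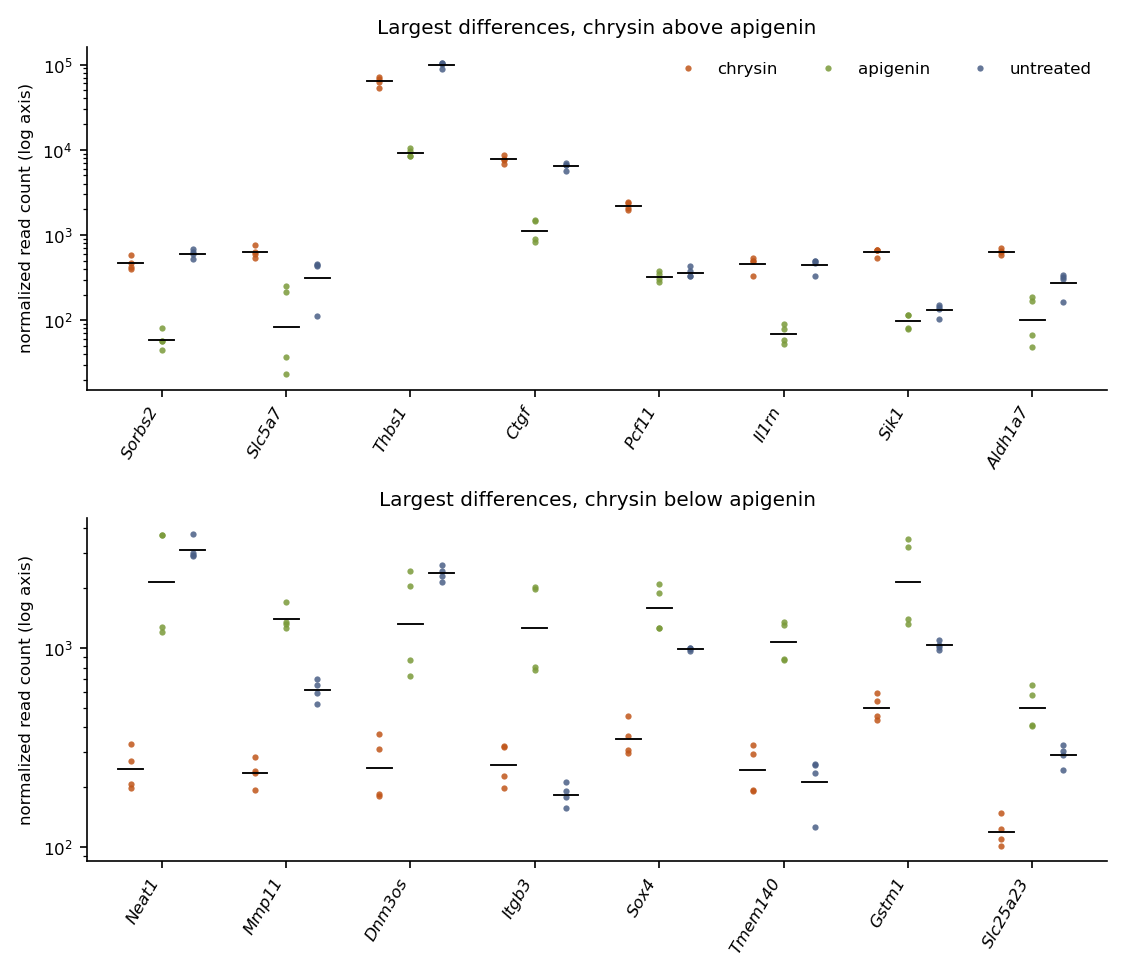
Normalized read counts (vertical log axis) are shown for the 8 largest differences in each direction between chrysin (orange, left), apigenin (green, middle) and untreated (blue, right) libraries, 4 points per group, with black bars for the means on the log2 scale. Chrysin libraries of Pcf11 and Sik1 lay above both other groups, and those of Neat1 and Dnm3os below both.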

How the data were processed

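The authors deposited 1 table of log2 values per gene for the 12 libraries, made from read counts that had been normalized between libraries, with 1 added before the logarithm. The tools named in the submitters' processing notes are STAR, HTSeq, DESeq2, cutadapt and FastQC, with mm9 as the build, and neither versions nor a strand setting are recorded there. After undoing the logarithm, 99.966% to 100% of the values of a library were whole multiples of 1 read within a tolerance of 0.05, which gave the read totals. The reads of a PCR-amplified library are not independent molecules, so floors cover counting error only.

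Of 24458 genes, 12198 reached a mean of 10 normalized counts over the 12 libraries and were kept. The fit used limma (version 3.58.1, under R 4.3.3) with 1 mean per group over all 12 libraries and trend and robust estimation, and p-values were adjusted by Benjamini-Hochberg over all genes kept. A gene is called at an adjusted p under 0.05, and the value after ± is a standard error on the log2 scale. Fold changes are on the log2(normalized count + 1) scale and understate the change of low genes. The count test on recovered reads, limma-voom, called 2698 genes higher and 3521 lower. Symbols were matched to RefSeq for 24350 IDs, 27 names turned into dates by a spreadsheet were restored, and 5 list symbols matched no row.

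Named genes were the 24 largest rises and the 24 largest falls whose groups did not overlap and whose level was at or above the median, the 10 smallest p-values in each direction, up to 4 called members of each list with the smallest p, members needed to say what did not pass, the 8 largest differences from apigenin in each direction, and Cyp1a1, Cyp1b1, Il6, Cdkn1a, Ccnb1, Hmox1, Col1a1, Myc, Trp53, Hif1a and Esr1. Predicted genes and pseudogenes were skipped. A further 143 genes were named outside this rule, after their values were seen, and some genes are not reported here. The comparison, the lists and the members were chosen with earlier results of these data known, so counts over lists are descriptions.

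Alternatives were a replicate block, 2 normalizations, 2 filters, 2 pseudocounts, other variance models and weights, the 8 chrysin and untreated libraries alone, recovered reads, thinned reads, a stricter threshold and leaving out each library. Fits with a single apigenin pair were added after seeing the data. Replicate numbers were not taken to pair libraries.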

Additional observations from a re-analysis of the deposited data

Results flagged for a closer look

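In the named genes, the highest or lowest of 4 libraries stood apart from the other 3 by Dixon's test at its 95% critical value in 41 of 682 groups tested (6.0%). Chance flags about 1 in 20 groups. Values are log2(normalized count + 1).

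Untreated replicate 1, the shallowest untreated library at 4865169 reads, gave 24 of the cases. It stood above the other untreated libraries for Lgr5 (10.49), Ptx3 (10.14), the elastin gene Eln (11.42), Neat1 (11.87), H19 (14.1), Ptgis (6.79) and the transporter Slc7a1 (9.58). The sterol and lipid genes Dhcr7 (9.79) and Scd2 (13.91) were also high there. It stood below them for Ccnd1 (12.1), Spp1 (11.98), Col4a1 (12.0), Abca1 (9.24), Abcc4 (7.6), Rad54l2 (7.98), Ppp1r15a (8.64), Tap1 (6.76), Chrdl1 (5.8), Irs2 (6.85) and Hoxc6 (8.05). Among the genes that differed most from apigenin it was low for Il1rn (8.38), Slc5a7 (6.81), Aldh1a7 (7.35) and Tmem140 (6.99). Without this library 2968 genes rose and 3019 fell with chrysin over all genes, and the part of its depth in these values was not tested.

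Chrysin replicate 3 was below its group for Tnfaip3 (6.97), Slc7a1 (10.17), Scap (9.07), Loxl3 (11.16) and Peg3 (8.01), and above it for Mt1 (11.78). Chrysin replicate 2 was low for Sik1 (9.05), Ptgfr (2.86) and Cdkn1a (11.98), chrysin replicate 1 was low for Ccnk (11.44) and Ell2 (10.92), and chrysin replicate 4 was high for Egr1 (12.37). Among the other untreated libraries, replicate 2 was low for Apoe (9.99), replicate 3 was high for Atf3 (5.0) and low for Ahrr (7.69), and replicate 4 was low for Ccl2 (8.03) and Bend3 (6.26).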

How the results depend on the processing

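The counts of genes that rose and fell kept within 1.5 times their main values under the alternatives, except that with a mean of at least 50 required, which keeps fewer genes, 864 fell by at least 1 on the log2 scale in place of 1370. Leaving out each library in turn gave 2899 to 3297 rises and 2849 to 3346 falls, 903 to 962 and 1293 to 1462 of at least 1 on the log2 scale, and 5438 to 6151 differences from apigenin. With the replicate number as a block, 3121 genes rose and 3158 fell. Same-numbered chrysin and untreated libraries correlated at -0.07, 0.0209, -0.0173 and 0.0252 in their deviations across genes, so the numbers were not taken as pairs. The stricter threshold and the 8-library fit were not run for the differences from apigenin. Over 341 named genes, of which 309 were called, and 16 differences from apigenin, 9591 pairs of gene and setting were compared. Of these pairs, 9485 kept the result of the main fit, called or not called, 39 lost a call, 67 gained one and 0 reversed. Many of these genes were named for a small p or for groups without overlap, which favours a call that stays. Direction was not compared where a gene was called in neither fit. The fold change against untreated cannot change with a replicate block, a stricter threshold or apigenin libraries left out, so no reversal was possible there. At an adjusted p under 0.01, 12 of the named genes lost the call: Ptx3, Ptgir, Cpsf1, Psmb4, Pmaip1, Ddb2, Gstm1, Hspa5, Slc2a1, Cdh11, Map2 and Aldh1a7. The fits with 1 apigenin pair were chosen after seeing the data. Low counts limit Cyp1a1, Il6, Jag2, Dusp2, Chrdl1, Ifit3, Ifit1, Nr4a3, Orc1, Ptgfr, Ptgir, H2-T23 and Ror1, which had at least 1 chrysin or untreated library at or under 3 reads.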

Other observations

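Lists with medians near 0 also held large changes. Of 22 genes of YAP, TEAD and their targets, 3 rose and 7 fell, or 7 and 7 with the 8 chrysin and untreated libraries alone, where 26.3% and 26.7% of all genes did. The ecto-nucleotidase Nt5e had 381, 556, 449 and 429 normalized counts in chrysin libraries, against 101, 70.7, 131 and 146 in untreated libraries (2.04 ± 0.30, adjusted p = 9.28e-05), while Amotl2, a scaffold that holds YAP, fell (-1.68 ± 0.35). Of 17 basement membrane genes, 7 rose, with the nidogens Nid1 (0.75 ± 0.09) and Nid2 (0.70 ± 0.14), and 5 fell, with the laminin chain Lama4 (-1.75 ± 0.25). The laminin chain Lama5 rose (0.86 ± 0.21).

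Of 23 noncoding RNAs and host genes, 6 rose and 10 fell. The host transcripts of small nucleolar RNAs Snhg6 (1.35 ± 0.26), Snhg12 (0.75 ± 0.15) and Snhg1 (0.66 ± 0.13) rose, and the noncoding RNAs of imprinted regions Mirg (-2.61 ± 0.22), Airn (-1.82 ± 0.43) and Meg3 (-0.97 ± 0.22) fell. Mirg had 25.3, 29.1, 39.9 and 20.1 normalized counts in chrysin libraries, against 214, 170, 165 and 153 in untreated libraries, with no overlap (adjusted p = 9.67e-08). Whether each of these genes is counted apart from transcripts that overlap it could not be checked from the table.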
